A study of Mus musculus with 15 samples.

Results

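Outflow tract-like cardiomyocytes were 179 of the 1400 single mouse heart cells in the series, and 179 of the 816 cells that passed a cardiomyocyte gate at embryonic days E8.25, E8.75 and E9.25. The gate kept cells with at least 1000 detected genes and at least 2000 CPM (the counts of a gene in a cell, scaled to a common total per cell) of Tnnt2, the cardiac troponin T gene. Each gated cell was scored on 4 short gene sets, as the mean log2(CPM + 1) of the set rescaled to mean 0 and SD 1 over the gated cells. A cell was called outflow tract-like when its score for Tdgf1, Tnc, Nrp2, Rspo3 and Bmp4 was the highest of its 4 scores and at least 0.5. The other 637 gated cells were 181 atrial or inflow-like cells (Gal, Vsnl1, Wnt2, Itga6, Cdo1), 160 Nppa-high chamber cells (Nppa, Nppb, Smpx, Cited1), 152 Cck-high ventricular-like cells (Cck, Ppp1r17, Cxcl12), each called by the same rule for its own set, and 144 cells with no class. Because these 17 set genes and Tnnt2 chose the cells, they were left out of every test.

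The study profiled single heart cells of mouse embryos in which Cre recombinase, under the name of Isl1 or Nkx2-5, switches on a red fluorescent reporter that a cell's descendants keep, to follow how cells of the second heart field are deployed. The 6 groups were Isl1Cre::Rosa26tdTomato embryos at E8.25, E8.75 and E9.25 and Nkx2-5Cre::Rosa26tdTomato embryos at the same 3 stages, with no group lacking Cre or the reporter. Each group had 2 libraries, except Isl1Cre at E9.25 with 1. The titles give both libraries of a group the same embryo number, so p-values reflect the spread of libraries that may be technical repeats, and a lineage or stage cannot be told apart from a single embryo. Cells were picked singly by mouth pipette after FACS or after trypsin alone, but the labels do not tie either way to a library. Heart cells with little Tnnt2 did not pass the gate.

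The outflow tract is the muscular tube that joins the embryonic ventricle to the aortic sac. It is built late, by progenitors of the second heart field that lie outside the early heart tube, proliferate under FGF and Wnt signals, and differentiate as they enter the tube from its arterial end. Its muscle wall shares contractile genes with smooth muscle, is later remodelled with the help of neural crest cells, and is divided into the aorta and the pulmonary trunk.

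The rule's own values are a description and carry no test. The outflow score had a median of 1.53 in outflow tract-like cells (0.501 to 2.78) and of -0.488 in other gated cells. The 2 lowest scores inside the threshold were 0.501 and 0.521, and the 2 highest just outside it, in cells whose outflow score was also their highest, were 0.496 and 0.49. In all, 231 cells had the outflow score as their highest and 52 of them fell below 0.5, while 38 cells with an outflow score of at least 0.5 had another set higher. Of the 179 cells, 78 had all 5 set genes detected, 76 had 4 and 25 had 3. A second score of at least 0.5 was present in 38 of them. The set that scored second was the atrial or inflow set in 63 of the 179 cells, the Nppa set in 57 and the Cck set in 59.

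Median depth was close in both kinds of cell, but very shallow cells were mostly other gated cells. The median cell had 115680 recovered counts and 5770 genes among outflow tract-like cells, against 111113 counts and 5759 genes among other gated cells. The ratio of the medians within a library was 0.661 to 2.03 (median 1.01) and was over 1 in 6 of 11 libraries (exact two-sided sign-flip permutation test, p = 0.783). Cells under 20000 counts were 5 of the 179 outflow tract-like cells and 69 of the 637 other gated cells. Cells with no class were shallower, with a median of 62228 counts. Of the 174 outflow tract-like cells with at least 20000 counts, 148 still met the rule after thinning to that depth, and 164 cells met it in all. Library totals over gated cells were between 5436613 and 19469477 counts, and no cell name or cell profile occurred in more than 1 library.

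Outflow tract-like cells were found in every library of both lineages. In Isl1Cre libraries they were 9.84% and 15.5% of gated cells at E8.25, 22.2% and 16.4% at E8.75, and 22.5% at E9.25. In Nkx2-5Cre libraries they were 18.3% and 24.0% at E8.25, 8.24% and 20% at E8.75, and 35.4% and 46.7% at E9.25. The 2 Nkx2-5Cre libraries at E9.25 held the highest shares, above every other library, and the lowest was an Nkx2-5Cre library at E8.75 with 7 such cells of 85.

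**Figure D1:**
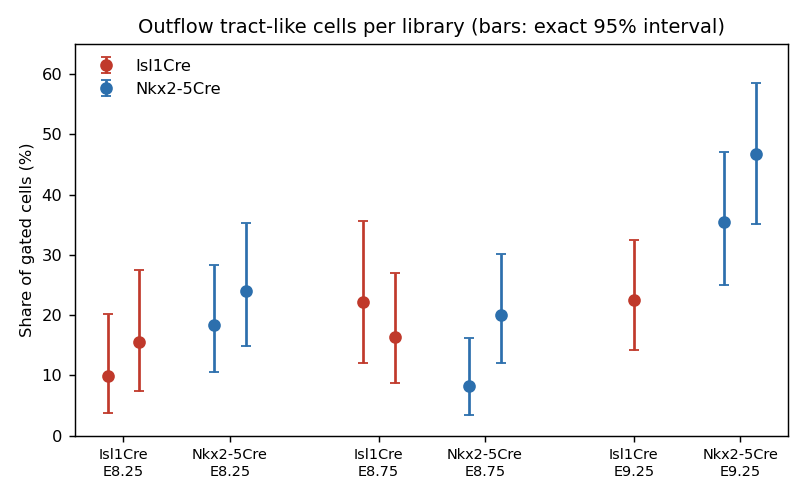
Share of gated cells that were outflow tract-like in each library (y axis, percent), for Isl1Cre and Nkx2-5Cre at each stage (x axis); each point is 1 library and its bar is the exact 95% binomial interval, which covers counting error only. The Nkx2-5Cre libraries at E9.25, at 35.4% and 46.7%, lie above all others, and the 5 Isl1Cre libraries lie between 9.84% and 22.5%.

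None of the 3 comparisons of shares passed its test. Averaged over stages, the share in Isl1Cre minus that in Nkx2-5Cre libraries was -7.28 percentage points (exact two-sided permutation test within stages, p = 0.213 over 108 arrangements). Per day the share was higher by 10.3 percentage points in Isl1Cre libraries (exact permutation p = 0.0667 over 30 arrangements) and by 19.9 points in Nkx2-5Cre libraries (exact permutation p = 0.178 over 90 arrangements). The Isl1Cre shares already stood in the steepest rise that their 30 arrangements allow. A rise in these shares therefore could not pass that test, and its p says nothing against one. Adjusted over the 3 tests by Benjamini-Hochberg, the p-values were 0.213, 0.2 and 0.213 (exact permutation). Group means were 12.7 ± 4.02%, 19.3 ± 4.09% and 22.5% (1 library) in Isl1Cre at the 3 stages, and 21.1 ± 4.04%, 14.1 ± 8.32% and 41.1 ± 7.94% in Nkx2-5Cre (SD, n = 2 libraries each), so libraries of 1 group differed by up to 11.8 points.

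The label was set beside 10 outflow markers that had no part in the rule. These markers were chosen with earlier results of these data known, so their count is no independent check of the label. Of the 9 that were abundant enough to test, 7 were higher in outflow tract-like than in other gated cells and 0 were lower: Acta2, Hand2, Msx2, Rgs5, Sema3c, Tgfb2 and Wnt11. Isl1 and Tagln did not pass the test, and Msx1 was too low to test. The comparison used mean CPM per library, paired within the 11 libraries, and limma's moderated test with Benjamini-Hochberg adjustment at 0.05 over 9195 genes. In it, 333 genes were higher (3.62% of those tested) and 526 lower (5.72%), 9.34% in all. The counts of each gene list below are to be read beside these shares. The cells were chosen on other genes of the same cells, so these p-values say how far a difference recurs between libraries and are no independent test that the kind of cell exists. All changes below are differences in log2(mean CPM + 1) ± SE, outflow tract-like minus other gated cells, with limma's adjusted p unless another test is named.

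Genes of the outflow tract and of the second heart field stood higher in outflow tract-like cells. Of the 23 tested genes of the outflow tract and anterior second heart field list (35 listed, 34 in the files), 12 were higher and 0 lower, and the list's median log2 difference was 0.93, against -0.05 over all genes. They included the ligands Fgf8, Wnt5a, Wnt11, Tgfb2 and Sema3c, the transcription factors Hand2, Mef2c and Msx2, and Dlk1, Rgs5 and Crabp1. The 11 tested genes that did not pass included Isl1, Fgf10 and Gata6, and 11 further genes of the files, Tbx1 and Msx1 among them, were too low to test. The count of higher genes was 11 to 14 when any 1 library was left out, and 11 with cells thinned to equal depth. Tbx1, a T-box factor of the pharyngeal and second heart field progenitors, had a median of 0 CPM over libraries in both kinds of cell.

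Wnt5a, a ligand of non-canonical Wnt signalling needed for lengthening the outflow tract (chr14:28504750-28527448, plus strand, mm10), had 67.5 to 174 CPM (median 109) in outflow tract-like cells, against 18.8 to 62.3 CPM (median 31.4) in other gated cells. The library values of the 2 kinds of cell did not overlap. The log2 difference was 1.62 ± 0.16 (adjusted p = 2.87e-08), higher in 11 of 11 libraries. Wnt11, another non-canonical ligand, had 25.7 to 105 CPM (median 81.9) in outflow tract-like cells, against 16.2 to 49.3 CPM (median 28.7) in other gated cells (log2 difference 1.31 ± 0.16, adjusted p = 1.29e-06), higher in 11 of 11 libraries although the ranges overlapped.

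Fgf8, the FGF ligand made by second heart field progenitors (chr19:45736798-45742915, minus strand), had 25.8 to 167 CPM (median 89.9) in outflow tract-like cells, against 5.13 to 38.8 CPM (median 21.8) in other gated cells. It was higher in each of the 11 libraries, by 2.11 ± 0.17 (adjusted p = 9.1e-10), while its level overlapped between the 2 kinds of cell across stages. After every cell was thinned to 20000 counts, Fgf8 was detected in 51.7% of the 174 outflow tract-like cells deep enough, against 20.6% of the 568 other gated cells (70.4% and 44.7% without thinning). Such percentages pool the cells of all libraries and stages and carry no test. Of the 16 tested genes of the FGF list, 4 were higher, namely Fgf8, the feedback inhibitors Spry2 and Il17rd and the FGF target Etv5, and 2 were lower, the receptor gene Fgfr1 and Etv1. Over all genes, 3.62% were higher and 5.72% lower.

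Hand2, a basic helix-loop-helix factor of the right ventricle and outflow tract (chr8:57320983-57324633, plus strand), had 57.8 to 138 CPM (median 94.5) in outflow tract-like cells, against 32.4 to 56.8 CPM (median 42.5) in other gated cells. Its library values did not overlap between the 2 kinds of cell (log2 difference 1.05 ± 0.14, adjusted p = 9.61e-06). Msx2, a homeobox gene that responds to BMP signals, had 28.2 to 86.0 CPM (median 48.2) in outflow tract-like cells, against 4.54 to 66.4 CPM (median 15.2) in other gated cells, and was higher by 1.57 ± 0.26 (adjusted p = 8.75e-05) in 10 of 11 libraries. Mef2c, a muscle transcription factor with an enhancer active in the anterior second heart field, was higher by 0.70 ± 0.11 (adjusted p = 6.06e-05) in 10 of 11 libraries.

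Isl1, the LIM-homeodomain factor that marks second heart field progenitors (chr13:116298281-116309689, minus strand), was uneven between libraries. Outflow tract-like cells had 8.62, 10.02, 12.3, 1.56 and 11.02 CPM in the Isl1Cre libraries (E8.25 to E9.25 in order) and 31.8, 68.6, 0, 24.9, 80.6 and 65.6 CPM in the Nkx2-5Cre libraries. Other gated cells had 3.39, 7.65, 1.3, 5.91 and 3.37 CPM and 4.72, 0.517, 15.7, 3.88, 0.868 and 2.71 CPM in the same libraries. Outflow tract-like cells were higher in 9 of 11 libraries, and the exceptions were Nkx2-5Cre E8.75 replicate 1, where Isl1 was listed at 0 in 7 cells, and Isl1Cre E8.75 replicate 2. The log2 difference of 1.804 ± 0.59 missed the threshold (adjusted p = 0.0546), and passed it without the first of those libraries (2.39, adjusted p = 0.00136) and without the second (2.13, adjusted p = 0.0217). At equal depth Isl1 was detected in 29.9% of outflow tract-like cells and 5.11% of other gated cells (40.8% and 14.1% without thinning). These percentages pool the cells of all libraries, carry no test, and give more weight to libraries with more cells. The Nkx2-5Cre libraries at E9.25, with 80.6 and 65.6 CPM of Isl1, held 28 and 35 of the 179 outflow tract-like cells.

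Sema3c, a guidance ligand needed for septation of the outflow tract, had 2.24 to 123 CPM (median 24.9) in outflow tract-like cells, against 3.31 to 30.8 CPM (median 10.1) in other gated cells. Its difference of 0.93 ± 0.30 was close to the threshold (adjusted p = 0.0454), held in 9 of 11 libraries, and lost its call when any 1 of 7 libraries was left out (adjusted p = 0.0579 to 0.162) and with cells thinned to equal depth (adjusted p = 0.805). The 7 were Nkx2-5Cre E8.25 replicate 1, Nkx2-5Cre E8.75 replicate 2, both Nkx2-5Cre libraries at E9.25, Isl1Cre E8.25 replicate 1, Isl1Cre E8.75 replicate 2 and Isl1Cre E9.25. Of the 11 tested genes of semaphorins and plexins, 3 were higher and 0 lower, the other 2 being the receptor genes Nrp1 and Plxna4, and 0 were called at equal depth. The count was 1 without Nkx2-5Cre E8.25 replicate 1 or without Isl1Cre E8.25 replicate 1.

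The genes with the widest difference, by the naming rule given with the methods, were led by Dlk1 and Phlda2. Dlk1, an imprinted gene for an EGF-repeat membrane protein (chr12:109452823-109463336, plus strand), had 34.6 to 196 CPM (median 115) in outflow tract-like cells, against 6.55 to 51.9 CPM (median 20.8) in other gated cells, a log2 difference of 2.48 ± 0.18 (adjusted p = 1.99e-10). Phlda2, another imprinted gene, had 144 to 806 CPM (median 339) in outflow tract-like cells, against 16.7 to 407 CPM (median 42.6) in other gated cells (log2 difference 2.37 ± 0.21, adjusted p = 4.19e-09). Both were higher in every library, with overlapping ranges. Rgs5, a regulator of G protein signalling, was higher by 2.24 ± 0.22 (adjusted p = 4.4e-08). Spin2c (log2 difference 1.53) belongs to a family of near-identical copies, so its reads may be split between them. The list was completed by Cald1, Fhl1, B4galt6, Mtus2 and Pmp22, with log2 differences of 1.46, 1.34, 1.33, 1.30 and 1.29.

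**Figure D2:**
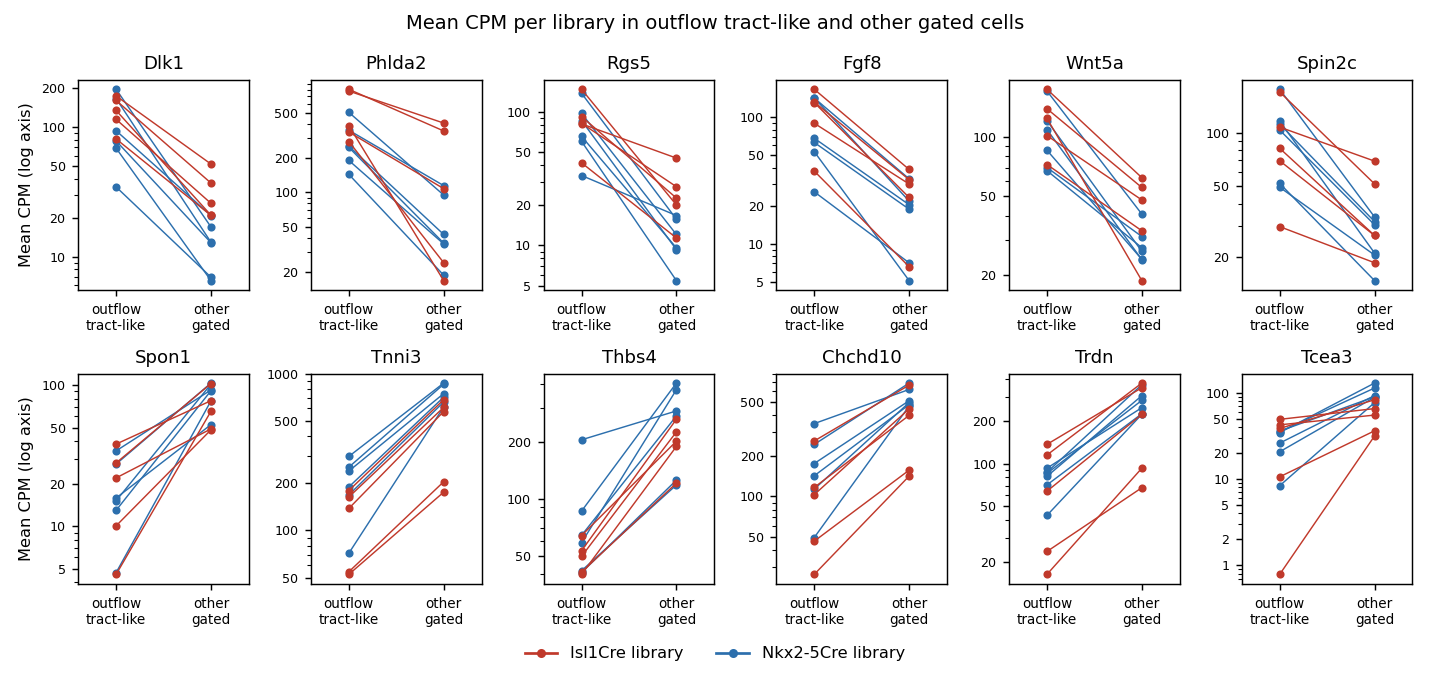
Mean CPM per library (y axis, log scale) of 6 of the 12 named genes that were higher (upper row) and 6 of the 12 that were lower (lower row); each line joins outflow tract-like cells (left) and other gated cells (right) of 1 library. All lines of the upper row fall and all lines of the lower row climb from left to right; for Wnt5a and Spon1 the 2 columns of points do not overlap.

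Some smooth muscle genes were higher, and others were lower or not called. Of 16 tested smooth muscle genes, 7 were higher (Acta2, Cald1, Cnn2, Flna, Myocd, Tagln2 and Tpm4) and 1 lower (Cnn1), with a median log2 difference of 0.19. Over all genes, 3.62% were higher and 5.72% lower. At equal depth 4 of the smooth muscle genes were higher and 1 lower. That lower gene was not Cnn1, whose call ended at equal depth. Cald1, caldesmon, an actin-binding protein of smooth muscle, had 502 to 1068 CPM (median 699) in outflow tract-like cells, against 163 to 385 CPM (median 263) in other gated cells, with no overlap between them (log2 difference 1.46 ± 0.12, adjusted p = 2.35e-09). Myocd, the coactivator of serum response factor in cardiac and smooth muscle, was higher by 0.79 ± 0.11 (adjusted p = 9.61e-06) and the filamin gene Flna by 1.08 ± 0.15 (adjusted p = 1.22e-05). Acta2, smooth muscle actin, had 2938 to 5820 CPM (median 5338) in outflow tract-like cells, against 3094 to 5208 CPM (median 4492) in other gated cells, a difference of 0.20 ± 0.05 (adjusted p = 0.00578) that lost its call at equal depth (adjusted p = 0.0604). Tagln did not pass the test (log2 difference 0.13 ± 0.07, adjusted p = 0.337). Myl9 was not among the genes called. It averaged 1319 ± 278 CPM in outflow tract-like, 1506 ± 353 CPM in atrial or inflow-like, 1512 ± 235 CPM in Nppa-high and 1613 ± 443 CPM in Cck-high cells (SD over libraries). In cells with no class it averaged 1160 ± 339 CPM. Myh11 was low, at means of 2.12, 6.87, 6.44 and 11.8 CPM in the first 4 kinds of cell, with an SD of up to 21.2 CPM.

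Among BMP and TGF-beta genes more calls were higher than lower. Of 28 tested, 7 were higher (the ligands Bmp2, Tgfb2 and Tgfb3, the receptor Tgfbr1, and the BMP targets Id1, Id3 and Msx2), and the co-receptor gene Tgfbr3 was lower (log2 difference -2.75 ± 0.38, adjusted p = 9.87e-06). Id3 had 276 to 523 CPM (median 353) in outflow tract-like cells, against 62.4 to 314 CPM (median 140.3) in other gated cells (log2 difference 1.19 ± 0.14, adjusted p = 7.09e-07), and Id1 was higher by 0.96 ± 0.16 (adjusted p = 8.99e-05). Bmp2 was not particular to these cells. It averaged 53.3 ± 22.6 CPM in outflow tract-like, 61.5 ± 26.9 CPM in atrial or inflow-like, 7.38 CPM in Nppa-high and 19.1 CPM in Cck-high cells (SD over libraries). Bmp4, the ligand among the set genes, was part of the rule. Of the 9 tested genes of the Nodal and Cripto pathway, in which the set gene Tdgf1 is a co-receptor, 2 were higher, among them the related co-receptor gene Cfc1 (1.02 ± 0.22, adjusted p = 0.00198), and 0 lower. Cfc1 averaged 64.8 ± 37.6 CPM in outflow tract-like, 49.2 ± 17.8 CPM in atrial or inflow-like, 13.7 CPM in Nppa-high and 12.5 CPM in Cck-high cells (SD over libraries). Of 24 Wnt genes, 2 were higher (Wnt5a and Wnt11) and 4 lower, among them the secreted inhibitor Sfrp5 (-2.65 ± 0.31, adjusted p = 7.19e-07). The counts of these lists stand beside 3.62% higher and 5.72% lower over all genes. At those shares the 2 higher Wnt genes say little about that list.

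Retinoic acid and Notch genes were called in both directions, 40% of the tested genes of the retinoic acid list and 28.6% of the Notch list, against 9.34% over all genes. Of 10 retinoic acid genes, 3 were higher and 1 lower (Tgm2), the higher ones including Crabp1, which binds retinoic acid, by 2.15 ± 0.28 (adjusted p = 3.19e-06) and Dhrs3, a reductase of retinal, by 2.28 ± 0.42 (adjusted p = 0.000346). Of 7 Notch genes, Hes1 was higher and Hey2, a repressor of the ventricular compact layer, lower (-1.96 ± 0.35, adjusted p = 0.000315).

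Matrix genes were among those that stood higher, though the count depended on the libraries. Of 36 tested extracellular matrix genes, 13 were higher and 2 lower (Fbln1 and Lama4), with a median log2 difference of 0.21. The shares over all genes were 3.62% higher and 5.72% lower. Without Nkx2-5Cre E8.25 replicate 2 the count of higher genes was 7, without Isl1Cre E8.75 replicate 1 it was 8, and at equal depth it was 7. Col1a2, a chain of type I collagen, had 24.8 to 153 CPM (median 50.1) in outflow tract-like cells, against 4.84 to 20.4 CPM (median 11.1) in other gated cells, no overlap between them, and a difference of 2.26 ± 0.24 (adjusted p = 1.51e-07). Its partner chain Col1a1 was higher by 1.59 ± 0.29 (adjusted p = 0.000341), the type II collagen gene Col2a1 by 0.55 ± 0.12 (adjusted p = 0.00302), and the laminin gene Lama1 by 1.51 ± 0.34 (adjusted p = 0.00281). Has2 and Hapln1, which make and bind the hyaluronan of cardiac jelly, were higher near the threshold (adjusted p = 0.0263 and 0.0384). Has2 kept its call in 13 of 24 alternatives (log2 difference 0.553 to 0.9). Hapln1 kept it in 12 of 24, and its log2 difference ranged from 0.086 to 1.121.

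Many genes of the working chambers were lower. Of 33 tested sarcomere genes 14 were lower and 5 higher (median -0.24), of 16 calcium handling and excitation genes 8 were lower and 0 higher (median -0.43), and of 19 ventricular and chamber genes 10 were lower and 4 higher (median -0.30). At equal depth the sarcomere counts were 16 lower and 4 higher, the calcium counts 8 and 0, and the ventricular counts 9 and 1. Only 2 ventricular genes were higher without Nkx2-5Cre E9.25 replicate 1, Nkx2-5Cre E9.25 replicate 2 or Isl1Cre E8.75 replicate 1. Of 13 atrial and inflow genes 8 were lower and 0 higher (median -1.02). The rule itself bears on these counts. Other gated cells include classes called for high atrial, Nppa or Cck scores, and outflow tract-like cells must score lower on those sets. Lower levels of atrial and chamber genes that go with those sets are thus partly built in and are no independent result. The sarcomere genes that were higher were Des, Myh7, Pdlim7, Smyd1 and Tpm2. Nkx2-5, the homeobox gene shared by all heart muscle, did not pass the test (179 to 561 CPM (median 345) in outflow tract-like cells, against 168 to 386 CPM (median 294) in other gated cells; log2 difference 0.16 ± 0.09, adjusted p = 0.32).

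Tnni3, the troponin I of the mature heart (chr7:4518305-4524229, minus strand), had 52.5 to 297 CPM (median 169) in outflow tract-like cells, against 176 to 871 CPM (median 659.8) in other gated cells. It was lower in all 11 libraries (log2 difference -1.97 ± 0.10, adjusted p = 2.22e-13), and the fetal form Tnni1 was lower too (-0.28 ± 0.05, adjusted p = 0.000142). Myl2, the ventricular myosin light chain, had 538 to 2625 CPM (median 1416) in outflow tract-like cells, against 1379 to 8768 CPM (median 3915) in other gated cells, a difference of -1.70 ± 0.07 (adjusted p = 4.68e-15), also lower in all 11. Of the myosin heavy chains, Myh6 (alpha) was lower (-1.02 ± 0.07, adjusted p = 6.38e-11) and Myh7 (beta) was higher by 0.60 ± 0.08 (adjusted p = 3.84e-06).

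Spon1, which encodes the secreted matrix protein F-spondin (chr7:113765998-114043370, plus strand), had 4.55 to 38.1 CPM (median 15.8) in outflow tract-like cells, against 48.1 to 103 CPM (median 77.5) in other gated cells, without overlap (log2 difference -2.19 ± 0.23, adjusted p = 1.08e-07). Trdn, triadin of the calcium release complex, was lower (-1.82 ± 0.11, adjusted p = 6.92e-12), as were the calcium pump gene Atp2a2 (-0.57 ± 0.09, adjusted p = 5.55e-05) and the release channel gene Ryr2 (-0.46 ± 0.09, adjusted p = 0.00113). Tbx5, a T-box factor of the first heart field and inflow region, had 1.01 to 31.9 CPM (median 12.8) in outflow tract-like cells, against 26.0 to 78.0 CPM (median 55.5) in other gated cells and was lower in all 11 libraries (-2.09 ± 0.26, adjusted p = 2.13e-06). The remaining genes named by the rule, all lower in every library, were Thbs4, Chchd10, Tcea3, Ehd4, Fbxo32, Myl1, Nav2 and Ldhb, with log2 differences between -1.87 (Thbs4) and -1.47 (Ldhb).

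Some calls named from lists lay near the threshold and ended when 1 library was left out. They were those of Bmp2, Cnn1, Cnn2, Egfl7, Etv1, Fgfr1, Hapln1, Has2, Krt19, Lama4, Nrp1, Sema3c and Tgfbr1, each lost without any of 1 (Tgfbr1) to 8 (Lama4) libraries, with adjusted p of 0.0503 (Bmp2) to 0.162 (Sema3c). Each of the 11 libraries ended at least 1 of these calls. With cells thinned to equal depth, the calls of Cnn1, Cnn2, Des, Etv1, Hapln1, Has2, Il17rd, Lama4, Nrp1, Plxna4, Tagln2, Tgfb3 and Tgfbr1 ended (adjusted p = 0.0542 for Hapln1 to 0.51 for Cnn2). With an outflow score threshold of 1.0 that of Lama1 ended (adjusted p = 0.117). The calls of Acta2 without a filter on low values (0.0668) and of Fbln1 with at least 10 cells per library and class (0.0565) ended as well. Acta2 kept its call in 21 of 24 alternatives in all. The calls of the 24 genes named by the rule all held in every alternative run and whichever library was left out.

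**Figure D3:**
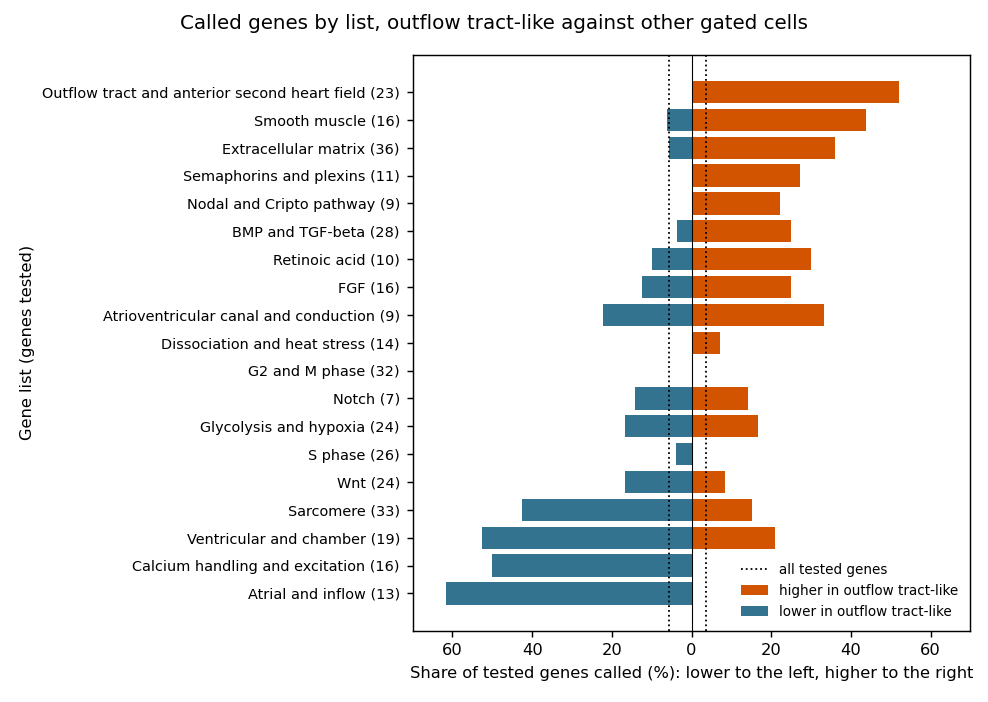
Share of the tested genes of each list that were called higher (right) or lower (left) in outflow tract-like cells at an adjusted p under 0.05, in percent of the tested genes given in brackets; dotted lines mark the share over all genes, 3.62% higher and 5.72% lower. The outflow tract list has 12 of 23 genes higher and none lower, and the atrial, calcium and sarcomere lists lie on the lower side.

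Markers of other kinds of cell were summed per library, and those of epithelium stood highest. Summed over 14 endoderm and epithelial markers, outflow tract-like cells had 1050 to 2166 CPM per library (median 1480), against 487 to 2158 CPM (median 848) in other gated cells, higher in all 11 libraries. Of the 4 that could be tested, 2 were higher, Krt8 and Krt18, and 1 lower, Spink1. Krt8 and Krt18 were the most abundant of the list, at means of 1068 and 448 CPM in outflow tract-like cells, and differed by 0.72 ± 0.09 and 0.90 ± 0.11 (adjusted p = 1.17e-06 and 1.04e-06). Sox2 was at 0 in all outflow tract-like cells, and Foxa2, Epcam, Cdh1 and Shh were too low to test.

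The 16 endothelial markers summed to 111 to 318 CPM (median 193) in outflow tract-like cells, against 113 to 346 CPM (median 159.9) in other gated cells. Of 6 tested, Egfl7 was higher (0.52 ± 0.15, adjusted p = 0.0217), at a mean of 162 CPM in outflow tract-like cells, and Nfatc1 lower. The 9 proepicardial markers summed to 97.2 to 322 CPM (median 213) in outflow tract-like cells, against 90.5 to 247 CPM (median 154) in other gated cells, and of 2 tested Krt19 was higher, at a mean of 190.2 CPM. The 11 neural crest markers were low, with 4.85 to 34.6 CPM (median 18.1) in outflow tract-like cells and 6.46 to 52.0 CPM (median 20.3) in other gated cells, 0 of 2 tested were called, and Sox10, Foxd3, Tfap2b, Pax3, Dlx2 and Dlx5 were at 0 in every outflow tract-like cell.

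The 12 pharyngeal mesoderm markers summed to 3.36 to 59.3 CPM (median 13.2) in outflow tract-like cells and 2.23 to 73.4 CPM (median 22.8) in other gated cells, with 0 of 1 tested called and Msc at 0. The 10 blood markers summed to 0 to 275 CPM (median 8.00) in outflow tract-like cells and 7.35 to 1540 CPM (median 18.9) in other gated cells, with 1 of 4 tested lower and Hba-a1 and Ptprc at 0. Blood markers were thus lower in outflow tract-like cells in 10 of 11 libraries. The part of the keratins, Egfl7 and Krt19 in the matrix and outflow differences was not tested.

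Outflow tract-like cells were next set against each other class of gated cell. Against atrial or inflow-like cells (9 libraries with at least 5 cells of each kind), 288 genes were higher and 401 lower of 9137 (3.15% and 4.39%, 7.54% in all). Against Nppa-high cells (10 libraries) 501 were higher and 634 lower of 9074 (5.52% and 6.99%, 12.5% in all), and against Cck-high cells (11 libraries) 325 were higher and 503 lower of 9152 (3.55% and 5.5%, 9.05% in all). The 3 comparisons share the outflow tract-like profiles, so their values are given side by side and no overlap is drawn from them. Nkx2-5Cre E9.25 replicate 2 and Isl1Cre E9.25 had too few atrial or inflow-like cells, and Isl1Cre E8.25 replicate 2 too few Nppa-high cells. Class means in CPM therefore cover unlike stages, which matters for genes that change with stage, while log2 differences are paired within libraries.

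Many genes of the outflow tract list were higher against each class. Of the tested genes of that list, 10 of 23 were higher and 0 lower against atrial or inflow-like cells (median 0.74), 15 of 22 higher and 1 lower against Nppa-high cells (median 1.54), and 12 of 23 higher and 2 lower against Cck-high cells (median 1.08). Wnt5a averaged 112 ± 38.0 CPM in outflow tract-like, 23.3 ± 10.04 CPM in atrial or inflow-like, 23.4 ± 12.3 CPM in Nppa-high and 35.4 ± 22.1 CPM in Cck-high cells (mean ± SD over libraries). Fgf8 averaged 95.8 ± 48.8 CPM in outflow tract-like, 12.5 ± 8.35 CPM in atrial or inflow-like, 16.6 ± 14.9 CPM in Nppa-high and 14.3 ± 12.3 CPM in Cck-high cells. Hand2 averaged 96.5 ± 23.2 CPM in outflow tract-like, 41.0 ± 11.8 CPM in atrial or inflow-like, 37.5 ± 11.02 CPM in Nppa-high and 40.9 ± 17.8 CPM in Cck-high cells. In each of these genes the outflow tract-like mean was the highest of the 4, and each of the 9 differences passed the test.

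Other genes set the cells apart from some classes and not from all. Tgfb2 averaged 171 ± 108 CPM in outflow tract-like, 93.5 ± 31.5 CPM in atrial or inflow-like, 58.5 ± 29.1 CPM in Nppa-high and 46.8 ± 21.7 CPM in Cck-high cells. Its difference passed against Nppa-high cells (1.61 ± 0.26, adjusted p = 8.02e-05) and Cck-high cells (1.63 ± 0.18, adjusted p = 1.26e-07) and not against atrial or inflow-like cells (0.48 ± 0.21, adjusted p = 0.206). Sema3c averaged 35.3 ± 37.1 CPM in outflow tract-like, 4.58 ± 4.37 CPM in atrial or inflow-like, 8.98 ± 4.66 CPM in Nppa-high and 24.1 ± 11.8 CPM in Cck-high cells. Its difference from Cck-high cells was -0.08 ± 0.34 (adjusted p = 0.951). Isl1, which missed the threshold against all other gated cells together, passed against each class, at 2.89 ± 0.63, 3.02 ± 0.54 and 2.25 ± 0.63 (adjusted p = 0.00301, 0.00024 and 0.0182 against atrial or inflow-like, Nppa-high and Cck-high cells). The call against Cck-high cells ended without any 1 of the 4 Nkx2-5Cre libraries at E8.25 and E9.25 (adjusted p = 0.0576 to 0.072) and with edgeR (adjusted p = 0.0562). Cells with no class had 15.1 ± 26.4 CPM of Isl1 (SD), against 28.6 ± 29.3 CPM in outflow tract-like cells.

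Myl2 was lower than in each of the 3 classes, and Myh7 was higher than in 2 of them. Myl2 averaged 1425 ± 734 CPM in outflow tract-like, 2686 ± 2013 CPM in atrial or inflow-like, 5401 ± 1965 CPM in Nppa-high and 6755 ± 2678 CPM in Cck-high cells. Its difference was -1.05 ± 0.10, -1.96 ± 0.07 and -2.39 ± 0.07 against the 3 classes in that order (adjusted p = 6.89e-08, 1.07e-16 and 5.41e-22). Tbx5 averaged 15.1 ± 10.2 CPM in outflow tract-like, 97.8 ± 26.8 CPM in atrial or inflow-like, 40.4 ± 10.97 CPM in Nppa-high and 34.9 ± 22.1 CPM in Cck-high cells. Myh7 averaged 1432 ± 538 CPM in outflow tract-like, 476 ± 241 CPM in atrial or inflow-like, 1039 ± 348 CPM in Nppa-high and 1181 ± 418 CPM in Cck-high cells. It was higher than in atrial or inflow-like cells by 1.49 ± 0.12 (adjusted p = 2.55e-09), higher than in Nppa-high cells by 0.45 ± 0.09 (adjusted p = 0.000801), and not different past the threshold from Cck-high cells (0.18 ± 0.08, adjusted p = 0.221).

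The rule for naming genes added several that were not among those above. Against Nppa-high cells these were Igfbp5, an insulin-like growth factor binding protein (2.65 ± 0.16, adjusted p = 2.35e-11), the imprinted gene Nnat (2.59 ± 0.22, adjusted p = 6.39e-09) and Amot, angiomotin of the Hippo pathway (2.21 ± 0.34, adjusted p = 4.62e-05), with Fitm1, a lipid droplet gene, lower (-2.11 ± 0.26, adjusted p = 2.29e-06). Against Cck-high cells Dab2, an endocytic adaptor, was higher (1.75 ± 0.19, adjusted p = 3.9e-08) and C130080G10Rik lower (-2.44 ± 0.32, adjusted p = 1.25e-06). Cacna2d2, an auxiliary calcium channel subunit, averaged 11.4 ± 7.66 CPM in outflow tract-like, 98.9 ± 32.3 CPM in atrial or inflow-like, 72.5 ± 21.5 CPM in Nppa-high and 108 ± 49.8 CPM in Cck-high cells. It was lower, at -3.07 ± 0.30 against atrial or inflow-like and -3.34 ± 0.28 against Cck-high cells (adjusted p = 7.1e-08 and 3.99e-10).

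**Figure D4:**
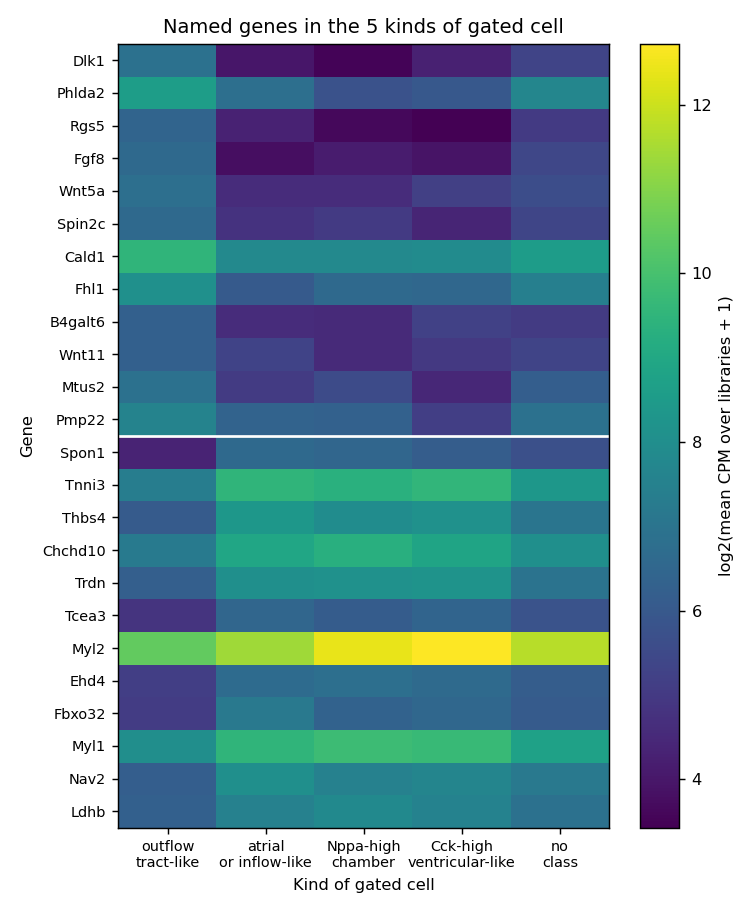
Mean level of the 24 named genes (rows; the 12 higher above the white line, the 12 lower below it) in outflow tract-like cells and in the 4 other kinds of gated cell (columns), as log2 of the mean CPM over libraries + 1, to be read along a row. Cells with no class lie between outflow tract-like cells and all 3 other classes for the upper genes other than B4galt6, for instance Fgf8 at 95.8 CPM in outflow tract-like cells and 41.7 CPM in cells with no class.

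Few genes were called between lineages within outflow tract-like cells. On simulated data the lineage test recovered 1% of genes changed by log2 1 and 71% at log2 2. A low count therefore does not show that few genes differed. Isl1Cre and Nkx2-5Cre cells differed in 4 of 9137 genes (0.0438%), 3 higher (0.0328%) and 1 lower (0.0109%) in Isl1Cre, with stage as a factor; 756 genes had an unadjusted limma p under 0.05. The lower one was Tgfb2, a ligand that acts in the cushions and wall of the outflow tract (chr1:186622792-186705989, minus strand). It had 85.0, 49.9, 61.7, 51.4 and 165 CPM in the Isl1Cre libraries and 238, 404, 157, 205, 208 and 255 CPM in the Nkx2-5Cre libraries, each from E8.25 to E9.25. The 4 Isl1Cre libraries at E8.25 and E8.75 lay below every Nkx2-5Cre library, and the one at E9.25 lay above the lowest Nkx2-5Cre library (log2 difference, Isl1Cre minus Nkx2-5Cre, -1.59 ± 0.25, adjusted p = 0.0117).

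March5, a mitochondrial ubiquitin ligase, had 243, 366, 161, 281 and 167 CPM in Isl1Cre libraries and 96.4, 82.5, 61.2, 98.9, 94.4 and 103 CPM in Nkx2-5Cre libraries, without overlap (1.36 ± 0.23, adjusted p = 0.0117). Wnk1, a kinase of ion transport, had 170.2, 262, 401, 398 and 328 CPM in Isl1Cre and 104, 167, 105, 99.2, 131 and 131 CPM in Nkx2-5Cre libraries, also without overlap (1.30 ± 0.22, adjusted p = 0.0117). Both genes had the same direction in other gated cells: March5 had 328, 206, 188, 141 and 190.5 CPM in Isl1Cre and 101, 110, 86.7, 81.3, 92.2 and 103 CPM in Nkx2-5Cre libraries there. Wnk1 had 297, 424, 343, 434 and 436 CPM in Isl1Cre and 171, 184, 158, 166, 137 and 201 CPM in Nkx2-5Cre libraries. The fourth gene, Rps15a-ps6 (1.24 ± 0.23, adjusted p = 0.0405), is a ribosomal pseudogene whose reads may come from its parent gene.

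These 4 calls were not firm. Tgfb2, March5 and Wnk1 each kept their direction in all 20 alternatives run, with adjusted p up to 0.136, 0.206 and 0.132, and that of Rps15a-ps6 reached 0.286. The calls of Tgfb2, March5 and Wnk1 were lost without Isl1Cre E8.25 replicate 2 (adjusted p = 0.08, 0.113 and 0.08) and without Isl1Cre E8.75 replicate 2 (0.0596, 0.0724 and 0.0724), under which 0 genes were called by limma (836 and 702 at an unadjusted p under 0.05). Tgfb2 and March5 were lost without Nkx2-5Cre E8.25 replicate 2 (0.0656 each), Wnk1 without Isl1Cre E8.75 replicate 1 and Isl1Cre E9.25 (0.0601 and 0.0897), and Rps15a-ps6 without any of 7 libraries (0.0552 to 0.179). Without Nkx2-5Cre E8.25 replicate 2 the call of 1 gene was left, and without Nkx2-5Cre E8.75 replicate 2 there were 10 higher and 2 lower. Count tests on summed recovered counts called 0 genes with edgeR (589 at an unadjusted p under 0.05) and 25 with DESeq2.

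The difference between outflow tract-like and other gated cells was also compared between lineages. No gene of 9195 passed limma's interaction test in either direction (0%; smallest adjusted p = 0.506), and 464 had an unadjusted p under 0.05. Only the test on libraries of a group pooled to 1 unit gave a call, of 1 gene lower. In the main test no lineage difference, that of Tgfb2 included, was shown to be particular to outflow tract-like cells. A p above the threshold does not show that the lineages were alike.

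Some sarcomere genes rose with stage in outflow tract-like cells, and Fgf8 fell. Within them, 37 genes rose (0.405%) and 21 fell (0.23%) per day of development, 58 of 9137 in all (0.635%), with lineage as a term. Of 33 sarcomere genes 5 rose (Csrp3, Lmod2, Myh7, Myl2 and Tnni3) and 0 fell, with a median log2 change of 0.36 per day against 0.01 over all genes. Of the 23 tested outflow tract genes, 1 fell (Fgf8) and 0 rose. The set that scored second in outflow tract-like cells differed between stages. At E8.25 it was the atrial or inflow set in 26 of 48 cells, the Nppa set in 13 and the Cck set in 9. At E8.75 these were 24, 14 and 10 of 48 cells, and at E9.25 they were 13, 30 and 40 of 83. The part of this makeup in the stage changes was not tested.

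Myl2 in outflow tract-like cells had 563 and 538 CPM in Isl1Cre and 754 and 831 CPM in Nkx2-5Cre libraries at E8.25, 1416 and 1270 CPM in Isl1Cre and 1559 and 1583 CPM in Nkx2-5Cre at E8.75, and 2517 CPM in Isl1Cre and 2625 and 2015 CPM in Nkx2-5Cre at E9.25. Each stage lay above the one before in both lineages, and the stages did not overlap (log2 change per day 1.86 ± 0.17, adjusted p = 1.03e-06). In other gated cells Myl2 had 1379 to 3572 CPM at E8.25, 3462 to 4327 CPM at E8.75 and 7766 to 8768 CPM at E9.25, and the difference between the 2 kinds of cell did not change with stage past the threshold (0.05 ± 0.19 per day, adjusted p = 0.998). Tnni3 rose by 1.49 ± 0.32 and Myh7 by 1.25 ± 0.18 per day (adjusted p = 0.0261 and 0.000357).

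Fgf8 in outflow tract-like cells had 132 and 167 CPM in Isl1Cre and 142 and 142 CPM in Nkx2-5Cre libraries at E8.25, 131 and 89.9 CPM in Isl1Cre and 63.4 and 68.4 CPM in Nkx2-5Cre at E8.75, and 37.6 CPM in Isl1Cre and 53.6 and 25.8 CPM in Nkx2-5Cre at E9.25. The ranges of the 3 stages did not overlap (log2 change per day -1.84 ± 0.31, adjusted p = 0.00374), though the call ended with cells thinned to equal depth (-1.57, adjusted p = 0.144) and with edgeR (-1.50, adjusted p = 0.124). At each stage other gated cells were lower, with 21.8 to 38.8 CPM at E8.25, 18.8 to 29.7 CPM at E8.75 and 5.13 to 7.08 CPM at E9.25. Cfc1 had 92.8 to 119.7 CPM at E8.25, 33.9 to 85.3 CPM at E8.75 and 14.6 to 30.7 CPM at E9.25 in outflow tract-like cells (-2.35 ± 0.35 per day, adjusted p = 0.000638), and Phlda2 had 352 to 806 CPM at E8.25, 248 to 386 CPM at E8.75 and 144 to 279.8 CPM at E9.25 (-1.42 ± 0.20 per day, adjusted p = 0.000357).

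**Figure D5:**
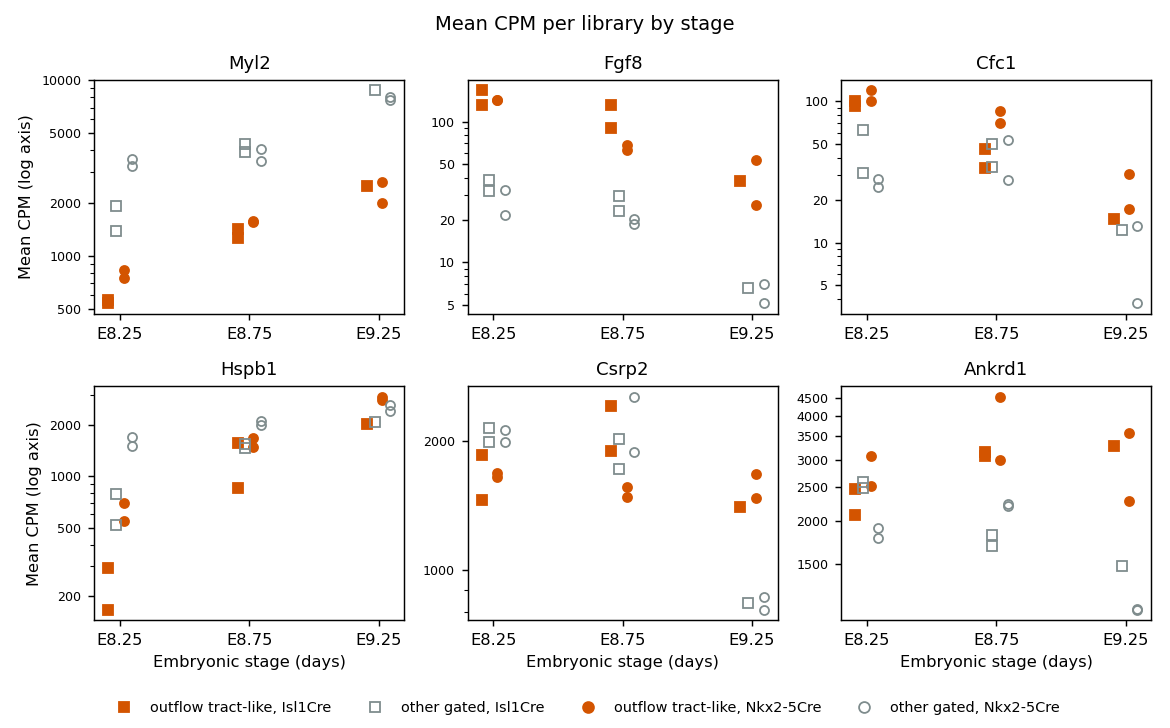
Mean CPM per library (y axis, log scale) at each stage (x axis) of 6 genes in outflow tract-like cells (filled) and other gated cells (open), Isl1Cre as squares and Nkx2-5Cre as circles. Myl2 is higher at later stages in both kinds of cell; Hspb1 is lower in outflow tract-like cells at E8.25 and had 2012 to 2910 CPM at E9.25, against 2063 to 2608 CPM in other gated cells, where Csrp2 is higher in outflow tract-like cells.

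The other genes named by the rule for the stage comparison were Hspb1, a small heat shock protein (2.72 ± 0.27 per day, adjusted p = 3.04e-06), Dsp, the desmosome protein desmoplakin (2.50 ± 0.40, adjusted p = 0.00198), the mitochondrial gene Chchd10 (2.35 ± 0.32, adjusted p = 0.000246), and the lactate dehydrogenase gene Ldhb (2.02 ± 0.38, adjusted p = 0.00969). Ndrg2, G0s2, Fam78a and Hist1h2bc also rose, by 2.08, 2.04, 1.90 and 2.19 per day. Of those that fell, Lin28a encodes an RNA-binding protein of early development (-2.001 ± 0.39 per day, adjusted p = 0.0111), Car4 a carbonic anhydrase (-2.28 ± 0.31, adjusted p = 0.000246) and Pola2 a subunit of DNA polymerase alpha (-2.45 ± 0.58, adjusted p = 0.0467). H2-T23, Gm16702 and Synrg fell by 2.67, 1.89 and 1.76 per day. H2-T23 and Hist1h2bc belong to families of similar genes, so their reads may be shared.

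The stage calls leaned on single libraries. Without the 1 Isl1Cre library at E9.25, 7 genes rose and 6 fell, all 13 of them among the 58. Without Nkx2-5Cre E9.25 replicate 1 the counts were 17 and 8, without Nkx2-5Cre E9.25 replicate 2 they were 21 and 14, without Isl1Cre E8.25 replicate 1 they were 18 and 11, without Isl1Cre E8.25 replicate 2 they were 19 and 11, and without Nkx2-5Cre E8.25 replicate 1 they were 29 and 11. Myl2, Myh7, Phlda2, Hspb1, Chchd10, Cfc1 and Car4 kept their calls in all 20 alternatives, and Fam78a whichever library was left out. Among the single libraries, only Isl1Cre E9.25 ended the calls of Fgf8, Dsp and Lmod2 (adjusted p = 0.058, 0.058 and 0.208). Ldhb and Lin28a were lost without that library or Nkx2-5Cre E9.25 replicate 1 (0.0694 to 0.14 and 0.0719 to 0.0808), Csrp3 without either of these or Nkx2-5Cre E8.25 replicate 1 (0.0535 to 0.208), and Tnni3 without Isl1Cre E9.25, either Isl1Cre library at E8.25 or Nkx2-5Cre E8.25 replicate 2 (0.0873 to 0.143). H2-T23 and Hist1h2bc were lost without any of 4 libraries, Ndrg2 without any of 7, and G0s2, Gm16702, Pola2 and Synrg without any of 9. With cells thinned to equal depth, the calls of Fgf8, Lmod2, Tnni3, Fam78a, Lin28a, H2-T23, Ndrg2, G0s2, Pola2 and Synrg ended (adjusted p = 0.0541 for Lin28a to 0.369 for Lmod2). With edgeR, those of Fgf8, Tnni3, Csrp3, Fam78a, Ndrg2, G0s2, Pola2 and Synrg ended (adjusted p = 0.0528 for Ndrg2 to 0.236 for Tnni3). Other settings also ended the calls of Ldhb (0.0546 without cells of high second score), Hist1h2bc and Gm16702 (0.137 and 0.298 without those cells).

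The difference from other gated cells changed with stage for 4 of 9195 genes (0.0435%). Each time it moved towards higher in outflow tract-like cells relative to other gated cells. Hspb1 had 166 to 702 CPM at E8.25, 859 to 1680 CPM at E8.75 and 2012 to 2910 CPM at E9.25 in outflow tract-like cells, against 518 to 1696 CPM at E8.25, 1467 to 2109 CPM at E8.75 and 2063 to 2608 CPM at E9.25 in other gated cells. Outflow tract-like cells were thus lower in all 4 libraries at E8.25, and within a library the log2 difference was -0.09 to 0.20 at E9.25. The difference moved by 1.52 ± 0.17 per day (limma interaction, adjusted p = 2.74e-05), and passed in all 15 alternatives.

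Csrp2, a LIM domain protein of smooth muscle, had 1459 to 1854 CPM at E8.25, 1482 to 2418 CPM at E8.75 and 1405 to 1678 CPM at E9.25 in outflow tract-like cells and 1986 to 2139 CPM at E8.25, 1722 to 2534 CPM at E8.75 and 809.5 to 869 CPM at E9.25 in other gated cells. It was lower in outflow tract-like cells in all 4 libraries at E8.25 and higher in all 3 at E9.25 (1.09 ± 0.18 per day, adjusted p = 0.0156). Ankrd1, a titin-associated protein induced by stretch, had 2078 to 3074 CPM at E8.25, 2995 to 4546 CPM at E8.75 and 2275 to 3577 CPM at E9.25 in outflow tract-like cells and 1788 to 2585 CPM at E8.25, 1695 to 2234 CPM at E8.75 and 1111 to 1480 CPM at E9.25 in other gated cells (0.97 ± 0.17 per day, adjusted p = 0.018). Myl7, the atrial light chain, moved by 0.48 ± 0.09 per day (adjusted p = 0.0353). In Nkx2-5Cre E9.25 replicate 2 and Isl1Cre E9.25, other gated cells held fewer than 5 atrial or inflow-like cells. Over libraries, Csrp2 averaged 2480 CPM in that class, 1406 CPM in Nppa-high and 1646 CPM in Cck-high cells. Ankrd1 averaged 2064, 1697 and 1753 CPM in that order, and Myl7 too was highest in the atrial class. The part of this makeup was not tested. Csrp2, Ankrd1 and Myl7 lost their calls without either of 2 libraries at E9.25, Nkx2-5Cre replicate 1 (adjusted p = 0.264, 0.264 and 0.546) or Isl1Cre (0.165, 0.249 and 0.165), and without Isl1Cre E8.25 replicate 2 (0.0937, 0.144 and 0.148). Csrp2 was also lost without Nkx2-5Cre E9.25 replicate 2 (0.142), Ankrd1 without Nkx2-5Cre E8.25 replicate 2 (0.0564) and Isl1Cre E8.25 replicate 1 (0.0973), and Myl7 without either Nkx2-5Cre library at E8.25, Nkx2-5Cre E9.25 replicate 2, Isl1Cre E8.25 replicate 1 or Isl1Cre E8.75 replicate 1 (0.0605 to 0.248).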

How the data were processed

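The authors deposited 15 files of CPM, with 23154 genes as rows and cells as columns. Per the submitters' processing notes the tools were CASAVA 1.8, TopHat2 2.0.12 and HTSeq on mm10; the role of each, and whether reads or molecular identifiers were counted, is not given there. Low values (to 20 counts) came out whole within 0.1 in 100% of cases per library, so counts were recovered for alternatives and depth.

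Cells of a library and class (at least 5 cells) were averaged. limma 3.58.1 (R 4.3.3; trended empirical Bayes) was run on log2(mean CPM + 1), TMM-scaled by 0.951 to 1.051, over genes averaging 5 CPM or more. Library was the block between classes. Within outflow tract-like cells, lineage was tested with stage as a factor, and stage as change per day with lineage as a term. Shares were tested by exact permutation over libraries. On simulated data, 63% of 100 genes changed by log2 1 were recovered between outflow tract-like and other gated cells and 100% at log2 2; for lineage the recovery was 1% and 71%, and for stage 2% and 21%, so the last 2 comparisons could miss most changes of 2-fold size. edgeR 4.0.16 on summed recovered counts called 371 genes higher and 457 lower between outflow tract-like and other gated cells; DESeq2 1.42.0 was run too.

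Named genes had adjusted p under 0.05 and an average log2(CPM + 1) of at least 5; they were the 12 largest changes each way with 1 direction in all libraries for outflow tract-like against other gated cells, 8 each way for lineage, stage and interactions, and 6 each way against each class. Other genes come from lists by function. The cells, lists and tests were chosen with earlier results of these data known. Gene positions are from GENCODE M21. Counting did not state strand, so overlapping genes cannot be told apart. Doublets were not called in these hand-picked cells. Libraries of a group differed beyond counting noise (chi-square over its degrees of freedom 17.8 to 48.6). Intervals cover counting error only. The letters N and I in the sample titles were read as Nkx2-5Cre and Isl1Cre from the design text. The 4 libraries at E7.75 entered no test.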

Additional observations from a re-analysis of the deposited data

Results flagged for a closer look

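For 4 genes, the difference between outflow tract-like and other gated cells changed with stage in limma's interaction test. The log2 difference moved by 1.52 per day for Hspb1, 1.09 for Csrp2, 0.97 for Ankrd1 and 0.48 for Myl7, out of 9195 genes. In single libraries it was, for Hspb1, between -1.62 and -1.24 at E8.25 and between -0.09 and 0.20 at E9.25, for Csrp2 between -0.43 and -0.24 and between 0.68 and 0.98, and for Ankrd1 between -0.24 and 0.72 and between 0.95 and 1.62.

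At E7.75, a stage outside the comparisons, 4 cells met the rule on the scale of the later stages. All were in Nkx2-5Cre E7.75 replicate 1, where they were 10.5% of 38 gated cells (exact 95% interval 2.94% to 24.8%). None was found among 37 gated cells of Nkx2-5Cre E7.75 replicate 2 and 16 and 23 of the Isl1Cre libraries, with upper exact limits of 9.49%, 20.6% and 14.8%. The groups hold 1 or 2 libraries, too few for a check of single libraries that stand apart.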

How the results depend on the processing

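The shares kept their direction and stayed above the threshold in all alternatives. For the Isl1Cre change per day this says little, as a rise could not pass even in the main test. For outflow tract-like against other gated cells, thinning cells to 20000 counts left 185 genes higher and 497 lower, so 27.1% of called genes were higher, against 38.8% at full depth, and the median of all genes moved to -0.17 from -0.05. Other alternatives kept both counts within 1.5 times, as did all run against each class. Of the values of 92 genes against other gated cells, 2004 kept their call and direction, 187 lost and 8 gained a call (Isl1). The lineage comparison gave 6 genes higher and 3 lower with a pseudocount of 10, 0 and 0 with edgeR, 17 and 8 with DESeq2, 1 and 1 with thinning, 0 and 0 with pooled libraries, 0 and 0 with no filter, and 3 and 2 without the 38 cells of high second score; leaving out a library gave 0 to 10 higher and 0 to 3 lower. The stage comparison gave 21 rising and 12 falling genes with edgeR, 67 and 38 with DESeq2, 16 and 9 with thinning, 15 and 11 with no filter, 14 and 10 without those 38 cells, and 7 to 51 and 6 to 23 when a library was left out. Libraries pooled by group gave 1 gene lower for the difference between lineages, and the change of the difference with stage held for 1 to 4 genes when a library was left out. Sema3c against Cck-high cells, which missed the threshold, changed sign with a pseudocount of 10 (0.067), with edgeR (0.12) and in 3 of 11 cases when a library was left out (-0.353 to 0.128); no other value reversed. Alternatives on second scores, on cells with no class, without a filter within outflow tract-like cells, and for the 2 interactions were chosen after seeing the data. The cause of these changes was not tested.

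Replicate numbers showed little pairing of the libraries: the correlation of same-numbered libraries' deviations was -0.016 to 0.098 over 20 pairs. Deviations of the 2 libraries of a group are equal and opposite, so each value occurs in both replicate numbers and the pairs are not independent. With the replicate number as a block, the counts were 237 higher and 388 lower against other gated cells, 3 and 1 for lineage, and 8 and 6 for stage; among genes named, it ended the calls of Etv5 and Tnni1 (adjusted p = 0.0705 and 0.0679), which held in all other alternatives. That fit leaves out the Isl1Cre E9.25 library, without which the stage counts were 7 and 6.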

Other observations

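The lists of this paragraph are to be read beside the shares over all genes, 3.62% higher and 5.72% lower. At those shares short lists hold few calls, so the low cell cycle counts say little about these genes. Of 26 S phase genes 0 were higher and 1 lower (Ung, -0.58 ± 0.18, adjusted p = 0.0383), and of 32 G2 and M phase genes 0 passed in either direction, with limma's test over all 9195 genes. Of 24 glycolysis and hypoxia genes 4 were higher and 4 lower. Slc2a3, a glucose transporter, had 148 to 273 CPM (median 197) in outflow tract-like cells, against 72.4 to 168 CPM (median 92.1) in other gated cells (0.92 ± 0.13, adjusted p = 1.07e-05), and Pkm, pyruvate kinase, was higher by 0.29 ± 0.05 (adjusted p = 0.000158), while Ldhb was lower (-1.47 ± 0.14, adjusted p = 2.32e-08). Of 14 dissociation and heat stress genes 1 was higher, Ier2 (0.38 ± 0.11, adjusted p = 0.0291), and 0 lower. The calls of Ung and Ier2 ended at equal depth (adjusted p = 0.347 and 0.652) and without any 1 of 8 and 6 libraries. Of 9 atrioventricular canal genes 3 were higher (Ankrd1, Bmp2 and Msx2) and 2 lower, the potassium channel gene Kcnk3 among them.

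Pyy, a gut hormone gene chosen here after its values were seen, had 6.72 to 597 CPM (median 149.9) in outflow tract-like cells, against 3.43 to 128 CPM (median 11.1) in other gated cells (2.56 ± 0.43, adjusted p = 0.000133), higher in 9 of 11 libraries, and so outside the naming rule.

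The 4 cells at E7.75 that met the rule were set beside the other gated cells of their library, with no test. Of the rule's own genes, their means were higher for Tdgf1 (876 CPM, against 336 CPM), Nrp2 (152 and 38.4 CPM) and Tnc (13.1 and 1.72 CPM) and lower for Bmp4 (6.89 and 8.44 CPM) and Rspo3 (4.3 and 5.07 CPM). Of genes outside the rule, their means were higher for Fgf8 (275 CPM, against 150.5 CPM), Wnt5a (188 and 66.8 CPM), Dlk1 (54.1 and 29.0 CPM), Rgs5 (27.4 and 18.3 CPM), Cald1 (381 and 295 CPM), Isl1 (23.9 and 21.2 CPM) and Tnni3 (112 and 56.4 CPM), and lower for Phlda2 (325.5 and 484.9 CPM), Wnt11 (3.92 and 11.9 CPM) and Myl2 (302 and 357 CPM).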
